A study of Mus musculus with 35 samples.

Results

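N6-methyladenosine (m6A) is placed on messenger RNA by a writer complex and removed by erasers. The 10 genes described here were chosen by name, for their role: the writers Mettl3, Mettl14, Wtap, Zc3h13, Rbm15, Rbm15b, Cbll1 and Mettl16, and the erasers Fto and Alkbh5. They are 10 of 32544 gene rows in the count tables. The data are 35 libraries from the hippocampus of male C57BL/6JOlaHsd mice, 7 to 9 weeks old by the study's methods. Mice labelled IA-KA received kainic acid, a glutamate receptor agonist that triggers status epilepticus, into the amygdala through an implanted cannula, with lorazepam later to limit the seizures. Mice labelled IA-PBS received the vehicle by the same route. The tissue was taken at 24 hours, the acute stage, or at 2 weeks, when the model has spontaneous seizures. An input library holds total RNA and an m6A library holds RNA pulled down with an antibody against m6A, each from 1 mouse.

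METTL3 is the catalytic subunit of the writer complex and METTL14 is its RNA-binding partner. WTAP holds the pair in nuclear speckles, ZC3H13 keeps the complex in the nucleus, RBM15 and RBM15B bring it to its targets, and CBLL1 (HAKAI) is a stabilising subunit. METTL16 is a separate enzyme that methylates U6 small nuclear RNA and the Mat2a transcript, which encodes the synthase of the methyl donor S-adenosylmethionine. FTO and ALKBH5 are demethylases that take m6A off again. In neurons the mark is known for its part in mRNA turnover, localisation and translation.

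The writer complex prefers a short sequence whose core is GGACT in DNA letters, and METTL16 prefers TACAGAGAA. Both were searched on the transcript strand only, in 1 canonical protein-coding transcript per gene (GENCODE vM39, 21751 transcripts), because they are the letters through which these enzymes meet their targets, including their own transcripts. GGACT was found in 88.8% of those transcripts, with a median of 3 copies, and the copies in the 10 genes numbered between 3 (Mettl14) and 14 (Mettl16). TACAGAGAA was found in 4.87% of transcripts and in none of the 10 genes. Mat2a held 5 copies, all in its 3′ UTR, and no transcript searched held more. Each is shown with 10 flanking bases and the motif in capitals.
Mat2a copy 1: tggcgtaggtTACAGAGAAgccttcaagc
Mat2a copy 2: ccttgtgataTACAGAGAAgtcacagggc
Mat2a copy 3: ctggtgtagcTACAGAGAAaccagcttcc
Mat2a copy 4: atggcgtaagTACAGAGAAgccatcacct
Mat2a copy 5: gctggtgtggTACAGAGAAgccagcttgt
For the 4 genes whose share of reads differed between the m6A and input libraries (below), the copy of GGACT nearest the stop codon is shown in the same way. It lies in the coding sequence of Zc3h13, Wtap and Fto, and in the 3′ UTR of Alkbh5, 21 bases past the last coding base. A match is a description of the letters, and the counts per gene do not show which base was methylated.
Zc3h13: gtttcagacgGGACTctgcaatccg
Wtap: agaatggcttGGACTcaaatgtaaa
Fto: cgagtcgtccGGACTttaccagtac
Alkbh5: tgccctcttgGGACTctggctaatc

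Of the 16 input libraries, 13 reached 100000 counts and were used (3057578 to 12694434 counts). Those 13 came from 3 IA-KA mice and 1 IA-PBS mouse at 24 hours and from 6 IA-KA and 3 IA-PBS mice at 2 weeks, so the acute input comparison has a single control. The 19 m6A libraries (1652933 to 34564536 counts) came from 5 IA-KA and 3 IA-PBS mice at 24 hours and from 6 IA-KA and 5 IA-PBS mice at 2 weeks. The column names state the assay of 8 libraries, and that of the other 27 was inferred from the prefix of the column name (a 3, 4 or 5 for m6A). The prefixes divide the m6A libraries into sets 3, 4 and 5, and the input libraries fall into sets 1 and 2. The sources used here do not say what the sets stand for, so the values within sets that hold both treatments are given after the comparisons. Mitochondrial genes took over 15% of counts in both libraries of IA-KA mouse 8 (24 hours) and in the m6A library of IA-KA mouse 6 (2 weeks), and at most 11.1% elsewhere. The markers of hippocampal neurons (6 genes) and of excitatory neurons (5 genes) were detected in every library used. All 10 genes had at least 27 counts in each library, so none is limited by a count of 0. Levels are CPM, counts scaled to a common library total, after TMM, the scaling edgeR uses to allow for differences in RNA composition.

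Levels between genes were set side by side only per kilobase of the canonical transcript, in the input libraries of the 3 IA-PBS mice at 2 weeks. Wtap was the highest, at 61.0 ± 14.5 CPM per kb (SD, n = 3). Fto (20.7 ± 3.29) and Zc3h13 (20.1 ± 1.74) came next and differed by less than their spread. Mettl14 (11.7 ± 0.179) and Alkbh5 (11.4 ± 0.759) likewise differed by less than their spread, and Mettl3 (9.22 ± 2.12) lay below Mettl14 by slightly more than its own SD. Rbm15 (4.54 ± 0.229) and Rbm15b (4.17 ± 0.634) were close to each other, and Mettl16 (3.64 ± 0.159) and Cbll1 (2.89 ± 0.828) were the lowest. The order rests on the length used. Over all annotated exons of a gene, Fto came to 5.06 ± 0.807 CPM per kb, while Wtap (18.4 ± 4.39) and Zc3h13 (16.8 ± 1.46) still stood above Mettl14 (3.80 ± 0.0584) and Mettl3 (2.77 ± 0.638).

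**Figure D1:**
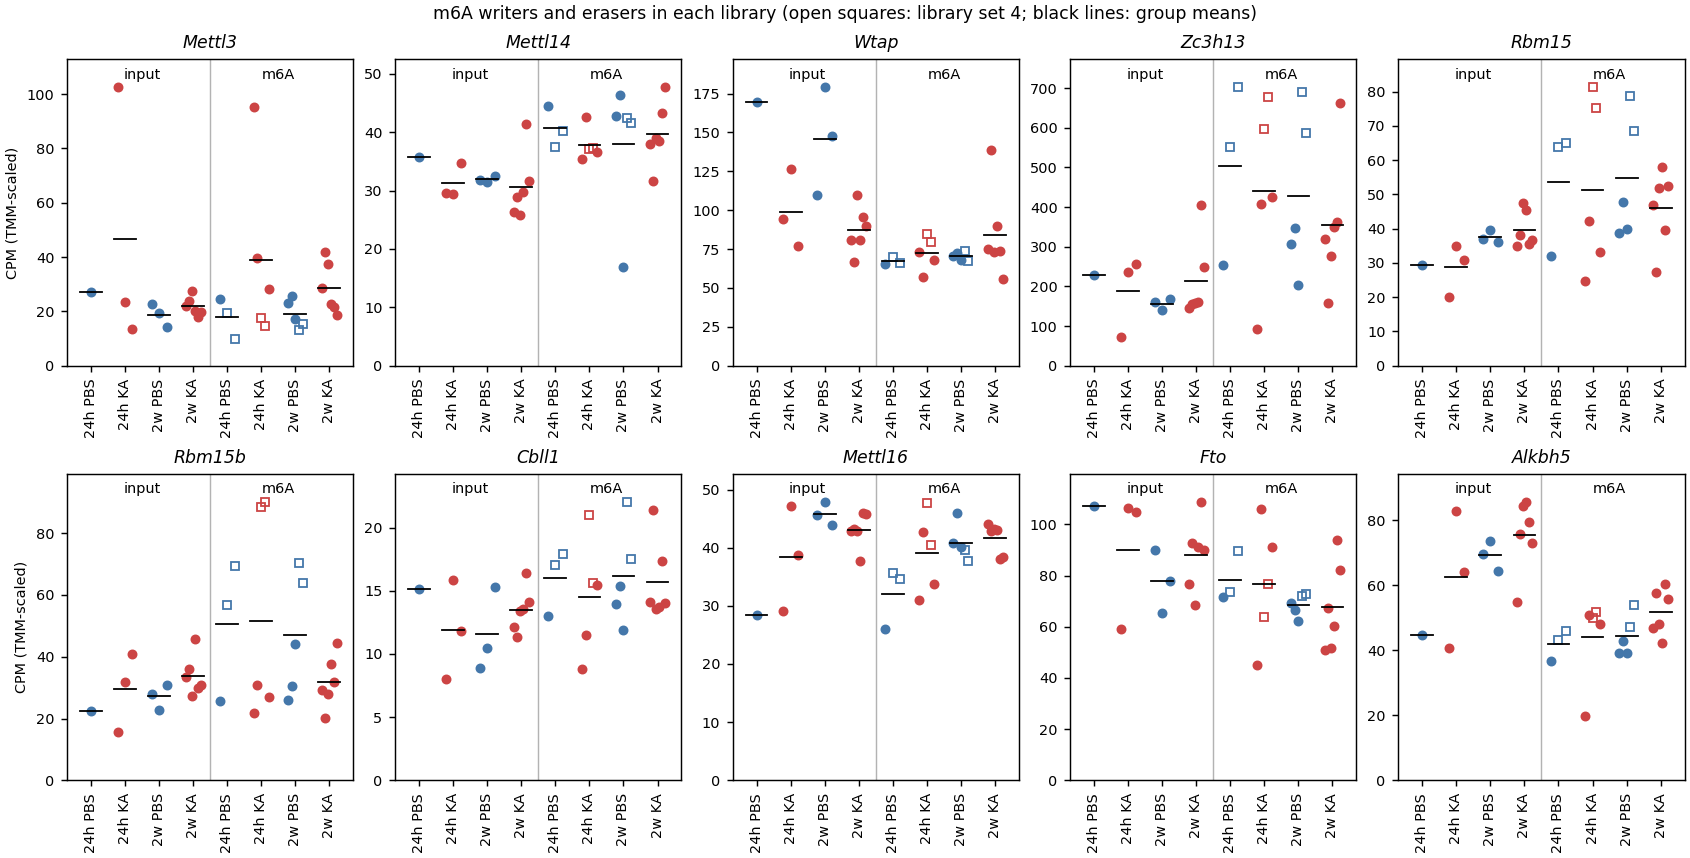
CPM (linear axis, TMM-scaled) of each of the 10 genes in every library used, by assay, time and treatment. Points are single mice (blue IA-PBS, red IA-KA), open squares are m6A libraries of set 4 and black lines are group means. IA-KA mouse 8 stands at 102.6 (input) and 95.2 (m6A) in the Mettl3 panel, and the open squares lie above most other m6A libraries in the Zc3h13, Rbm15 and Rbm15b panels.

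The first question was whether transcripts of the writers and erasers changed after IA-KA. None of the 10 genes passed an adjusted p of 0.05 in the input or m6A libraries at either time, by edgeR's quasi-likelihood test fitted on all genes. The share of all genes that passed was 0% in input at 24 hours, 0% in input at 2 weeks, 0.00607% in m6A at 24 hours and 0% in m6A at 2 weeks, so a count of 0 among 10 genes did not set them apart. At an unadjusted p under 0.05 there was 1 of 10 in input at 24 hours (Mettl16; 9.23% of all genes), 1 in input at 2 weeks (Wtap; 14.1%), 0 in m6A at 24 hours (5.31%) and 1 in m6A at 2 weeks (Mettl3; 5.01%). DESeq2 also called 0, as did voom (limma, each library weighted by its quality), except for Wtap in input at 2 weeks, which both called. Over all genes DESeq2 called 0.947% in m6A at 24 hours, 0.0928% in m6A at 2 weeks, 1.14% in input at 24 hours and 0.822% in input at 2 weeks, and voom called 6.80%, 0.0124%, 6.10% and 2.49%. The groups did not overlap for 0 members in m6A at 24 hours (4.38% of all genes, 2.06% with IA-KA below), 0 in m6A at 2 weeks (0.631%), 1 in input at 2 weeks (Wtap) and 4 in input at 24 hours, where 1 control library leaves 37.5% of all genes without overlap (Mettl14, Wtap and Fto below it, Mettl16 above).

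**Figure D2:**
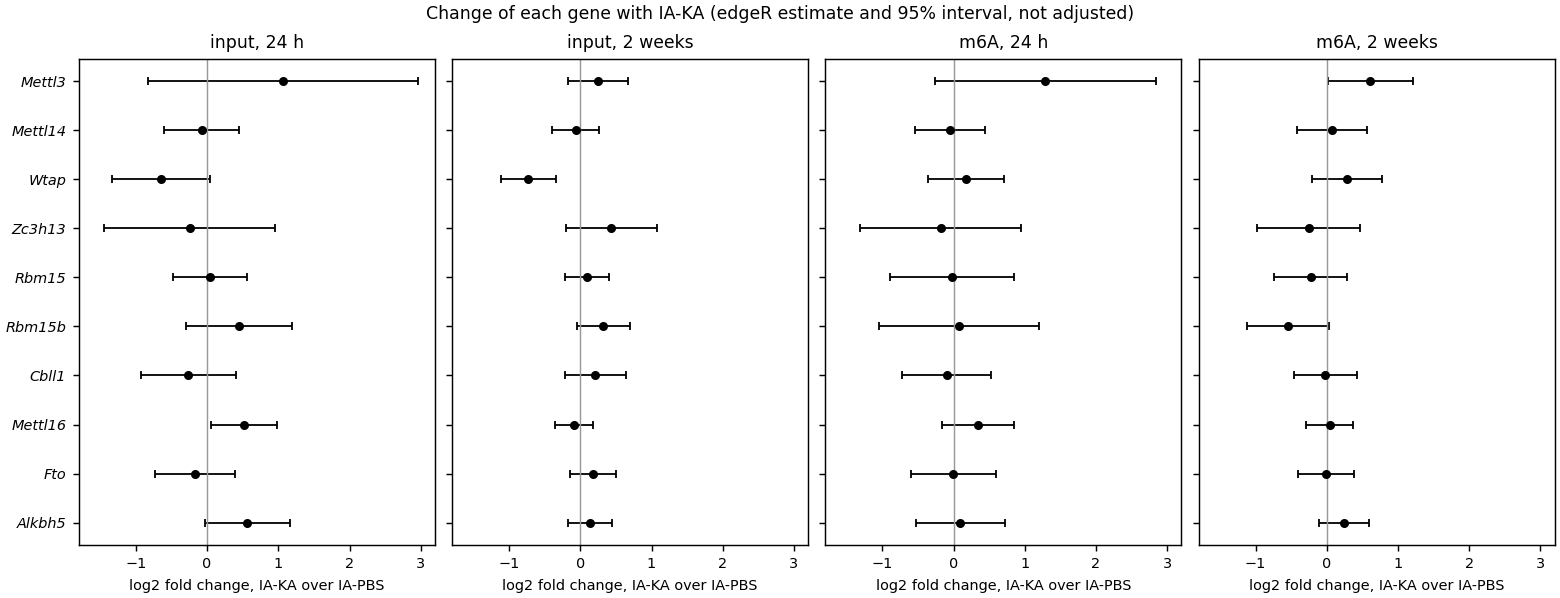
Log2 fold change of IA-KA over IA-PBS for each gene, with the 95% interval of edgeR's quasi-likelihood fit (not adjusted for the number of genes), in the 4 comparisons. The intervals are narrowest in input at 2 weeks, where that of Wtap lies below 0, and widest for Mettl3 at 24 hours.

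Wtap (chr17:12966799-12992543, mm10), the subunit that anchors the METTL3 and METTL14 pair, was the gene furthest from 0 in input at 2 weeks. Its level was 109.9, 147.9 and 179 CPM in the 3 IA-PBS mice. In the 6 IA-KA mice it ran from 66.4 through a median of 85.6 to 109.6 CPM. The groups did not overlap, although the highest IA-KA mouse (7) and the lowest IA-PBS mouse (2) were almost level. Among all genes, 7.51% had groups that did not overlap and 4.29% had IA-KA below IA-PBS. The edgeR log2 fold change was -0.73 (SE 0.18, 95% interval -1.11 to -0.35), or 0.603 of the IA-PBS level, with an adjusted p of 0.242. DESeq2 gave an adjusted p of 0.0371 and voom 0.0319 for changes of -0.73 and -0.81, so the call depends on the tool. Within input set 1, which holds all 3 IA-PBS mice and 3 of the IA-KA mice, the change was -0.70 (adjusted p = 0.185). Left out in turn, single libraries moved it between -0.90 and -0.55. In the same comparison the markers of astrocytes (5 genes) summed to 1242 to 3795 CPM in IA-KA mice and 750.5 to 1049 CPM in IA-PBS mice. Those of thalamus (4 genes) summed to 76.0 to 120 CPM in IA-KA mice and 133.5 to 198 CPM in IA-PBS mice. The sums of the other marker lists, among them hippocampal neurons (725 to 1550 against 679 to 783 CPM), overlapped. The part of these markers in the Wtap values was not tested. In bulk tissue, a shift in the mix of cells and a change of RNA per cell cannot be told apart.

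At 24 hours Wtap stood at 169 CPM in the single IA-PBS input library and at 76.8, 94.1 and 127 CPM in the 3 IA-KA libraries. All 3 lay below the control, as did 22.1% of all genes against this 1 library. The log2 fold change was -0.65 (SE 0.32, adjusted p = 0.567 in edgeR). The m6A libraries did not show this difference. At 2 weeks they held 67.2 to 73.9 CPM of Wtap in IA-PBS mice and 55.6 to 138.5 CPM in IA-KA mice, and the change was 0.29 on the log2 scale (SE 0.23), with an adjusted p of 0.875 in edgeR. The highest value was that of IA-KA mouse 6, and without this mouse the change was 0.06 (SE 0.17). Whether the change differed between the assays was tested within mice at 2 weeks: the m6A over input ratio of Wtap was higher in IA-KA mice by 0.91 on the log2 scale (SE 0.36, 95% interval 0.15 to 1.68), with an adjusted p of 0.875 in edgeR. Of the 10 genes, 0 passed in that test (0.00636% of all genes), and Wtap was the 1 gene with an unadjusted p under 0.05 (4.27% of all genes). All 3 IA-PBS mice in this test paired input set 1 with m6A set 5 (Wtap ratios from -1.31 to -0.63). Of the IA-KA mice only mouse 21 did (-0.37), so treatment and the pairing of sets largely went together and cannot be told apart here.

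**Figure D3:**
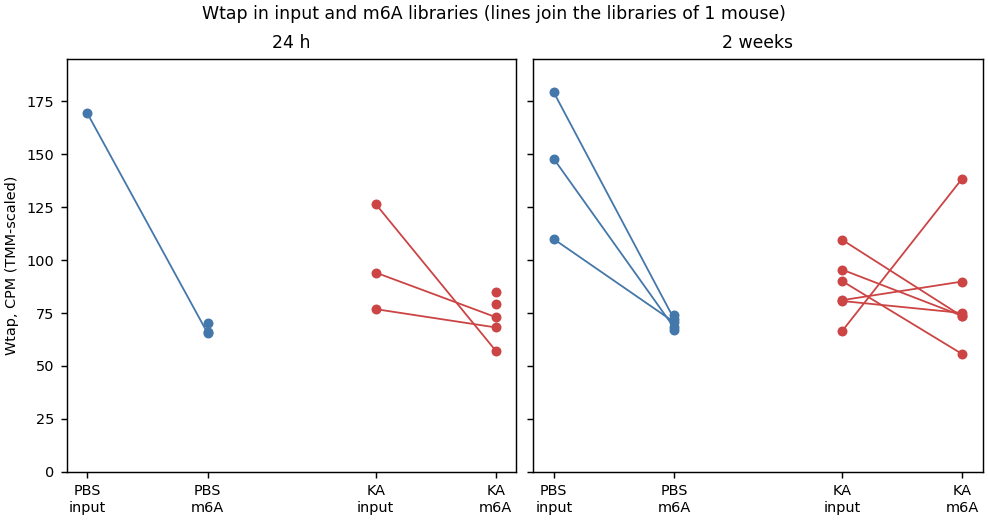
Wtap level (CPM, TMM-scaled, linear axis) in the input and m6A library of each mouse at 24 hours and 2 weeks; lines join the libraries of 1 mouse and points without a line have only an m6A library. IA-PBS input values spread from 109.9 to 179 CPM at 2 weeks while the m6A values of the same group lie between 67.2 and 73.9 CPM.

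Mettl3 (chr14:52294841-52308741), the catalytic subunit, had its highest values in 1 animal. IA-KA mouse 8 held 102.6 CPM in input and 95.2 CPM in m6A at 24 hours. The other acute libraries held 13.6, 23.3 (IA-KA) and 27.2 (IA-PBS) CPM in input, and 14.7, 17.7, 28.1 and 39.7 CPM (IA-KA) and 9.92, 19.3 and 24.6 CPM (IA-PBS) in m6A. Apart from mouse 8, the m6A groups overlapped, and the other IA-KA input values lay below the single IA-PBS value. The log2 fold change in m6A was 1.29 (SE 0.70, adjusted p = 0.983) with mouse 8 and 0.43 (SE 0.42) without it, and within set 4 it was 0.14 (SE 0.32). In input it was 1.07 (SE 0.88, adjusted p = 0.750) and turned to -0.57 (SE 0.34) without that mouse. This is also the mouse with 17.4% (input) and 16.4% (m6A) mitochondrial counts, and with the most genes detected of any library (28574 and 28496). Its hippocampal neuron markers summed to 350 CPM in input and 298 CPM in m6A, where all other libraries held at least 590 and 485 CPM. Its excitatory neuron markers summed to 780 and 787 CPM, where the others held at least 1280 and 1467 CPM. It was also the lowest library of each assay for markers of astrocytes (367 CPM in input and 573 CPM in m6A) and oligodendrocytes (536 and 909 CPM). No other marker list was lowest in this mouse in both assays, and its endothelial sum in input (1224 CPM) was the highest. Whether these values share a source with its Mettl3 level was not tested.

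At 2 weeks Mettl3 in m6A ran from 18.7 through a median of 25.5 to 42.0 CPM in the 6 IA-KA mice. The 5 IA-PBS mice held 12.99, 15.4, 17.3, 23.2 and 25.8 CPM. The upper IA-KA values lay above the IA-PBS range and the lower ones inside it. The log2 fold change was 0.61 (SE 0.28, adjusted p = 0.875 in edgeR), and within set 5, which holds both groups, it was 0.31 (SE 0.30). In input at the same time the change was 0.25 (SE 0.20), with 18.1 to 27.6 CPM in IA-KA and 14.1 to 22.7 CPM in IA-PBS mice. Exons of Mettl3 overlap those of Tox4 on the opposite strand over 366 of 2032 bases of the canonical transcript, and whether strand was used in counting is not given in the sources used here.

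Mettl14 (chr3:123368295-123385990) had the smallest changes of the complex over the 4 comparisons. It ran from 25.7 to 41.3 CPM over all input libraries and from 31.7 to 47.8 CPM in the m6A libraries other than that of IA-PBS mouse 4 at 2 weeks, which held 17.0 CPM. Its log2 fold changes lay between -0.08 and 0.07, with SEs between 0.15 and 0.25. In input at 2 weeks the 95% interval was -0.39 to 0.26. In m6A the sign turned at 2 weeks without IA-PBS mouse 4 (-0.12) and at 24 hours without IA-PBS mouse 1 (0.05).

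Zc3h13 (chr14:75284306-75344433), the nuclear retention factor of the complex, varied widely within groups in m6A. Its levels there ran from 92.1 to 677 CPM at 24 hours and from 159 to 662 CPM at 2 weeks in IA-KA mice. The corresponding IA-PBS ranges were 255 to 703 CPM and 204 to 691 CPM, so the groups overlapped over most of their length. The log2 fold changes were -0.18 (SE 0.51) and -0.25 (SE 0.34). The first turned to 0.07 without IA-KA mouse 8 and to 0.12 without IA-PBS mouse 73, and the second ran from -0.50 (without IA-KA mouse 42) to -0.03 (without IA-PBS mouse 50) and was 0.20 within set 5. In input at 2 weeks, 4 of the 6 IA-KA mice lay within 146 to 160 CPM, close to the 3 IA-PBS mice (141 to 167 CPM), while mice 42 and 21 held 249.9 and 405 CPM. The log2 fold change was 0.44 (SE 0.29, adjusted p = 0.514).

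The adaptors Rbm15 (chr3:107305511-107334460) and Rbm15b (chr9:106880928-106887075) differed between sets of libraries, as described below, and had no called change after IA-KA. Rbm15 stood at 0.10 (SE 0.15) in input and at -0.23 (SE 0.24) in m6A at 2 weeks. Rbm15b stood at 0.32 (SE 0.17) in input and -0.54 (SE 0.27, adjusted p = 0.875) in m6A at 2 weeks, and within set 5 the m6A value was -0.04 (SE 0.25). Exons of Manf share 3962 bases with Rbm15b on the same strand and a long noncoding RNA, Gm65068, shares 1711 bases with Rbm15 on the other. How reads there were counted is not known, and their part in the counts was not tested.

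Cbll1 (chr12:31484829-31500676), the stabilising subunit, was the member with the fewest counts in a library. It ran from 7.99 to 16.4 CPM in input and from 8.82 to 22.1 CPM in m6A, and its 4 changes lay between -0.27 and 0.21, with SEs from 0.20 to 0.31. Mettl16 (chr11:74770815-74826855), the separate methyltransferase, held 28.5 CPM in the IA-PBS input library and 29.1, 38.7 and 47.2 CPM in the IA-KA libraries at 24 hours. All 3 lay above the control, the lowest by little, and the change was 0.52 (SE 0.22, adjusted p = 0.495). The median change of all genes in that comparison was 0.27. At 2 weeks the change of Mettl16 was -0.08 (SE 0.12) in input and 0.04 (SE 0.15) in m6A. For its substrate Mat2a (chr6:72432796-72439556) the log2 fold changes were 0.15 (SE 0.22) and 0.07 (SE 0.13) in input and 0.07 (SE 0.24) and 0.05 (SE 0.19) in m6A, at 24 hours and 2 weeks respectively, none of them called.

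Of the erasers, Fto (chr8:91313367-91668433) had changes of -0.18 (SE 0.26) and 0.18 (SE 0.15) in input at 24 hours and 2 weeks, and of -0.00 (SE 0.27) and -0.01 (SE 0.18) in m6A. Its m6A level was 62.1 to 72.7 CPM in IA-PBS and 51.1 to 93.9 CPM in IA-KA mice at 2 weeks, so the IA-KA values lay on both sides of the controls. Alkbh5 (chr11:60537683-60558512) held 44.6 CPM in the IA-PBS input library and 40.7, 64.1 and 82.6 CPM in the IA-KA libraries at 24 hours (change 0.56, SE 0.28, adjusted p = 0.567). At 2 weeks its changes were 0.13 (SE 0.14) in input and 0.24 (SE 0.16) in m6A. Input at 24 hours has 1 control, and scaling by library size alone moved the median of all genes there by -0.31, from 0.27 to -0.04. Each of these acute input values therefore moves by about that much with the scaling.

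The difference between the stages was tested as an interaction over all 19 m6A libraries. None of the 10 genes passed in edgeR (0.00573% of all genes did), 0 had an unadjusted p under 0.05 (2.45% of all genes), and DESeq2 and voom called 0. The estimates ran from -0.66 (Mettl3, SE 0.69) to 0.14 (Alkbh5, SE 0.29), and without mouse 8 that of Mettl3 turned to 0.20.

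The second question was how the reads of each gene divided between the m6A and input libraries of the same mouse, in the 13 mice with both. Zc3h13 was higher in m6A, and Alkbh5, Wtap and Fto were lower. These are 4 of 10 genes past an adjusted p of 0.05 in edgeR with the mouse as a block, 1 higher and 3 lower, beside 30.2% of all genes (15.6% higher and 14.6% lower), and 6 had an unadjusted p under 0.05 (42.1%). That share does not set the members apart from other genes. A ratio of this kind is relative to all other transcripts, and assay, library set and RNA selection differ together, so that they cannot be told apart.

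Alkbh5, the nuclear demethylase, was lower in m6A in 13 of 13 mice. Its log2 ratio of m6A over input CPM ran from -1.04 (IA-KA mouse 8) through a median of -0.70 to -0.22 (IA-KA mouse 5). The fitted value was -0.65 (SE 0.08, 95% interval -0.83 to -0.48), with an adjusted p of 2.61e-05. Fto, the other eraser, was lower in 12 of 13 mice, from -0.59 to 0.03 with a median of -0.38. Its fitted value was -0.37 (SE 0.07, adjusted p = 7.70e-04).

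Zc3h13 moved the other way. Its ratio was above 0 in 12 of 13 mice and ran from -0.16 (IA-KA mouse 21) through a median of 0.79 to 1.40 (IA-KA mouse 42), with a fitted value of 0.65 (SE 0.12, adjusted p = 8.54e-04). Wtap was below 0 in 11 of 13 mice, from -1.37 (IA-PBS mouse 1) through -0.58 to 1.06 (IA-KA mouse 6), with a fitted value of -0.56 (SE 0.17, adjusted p = 0.0208). The mouse at 1.06 is the one with 17.5% mitochondrial counts in its m6A library. Without it and mouse 8, Wtap came to -0.73 (adjusted p = 8.45e-04) and the other 3 genes kept their calls. In the 4 IA-PBS mice alone Wtap was the only one of the 10 that passed, with ratios of -1.37, -1.31, -1.11 and -0.63. The 6 IA-KA mice at 2 weeks gave -0.14 (SE 0.22).

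**Figure D4:**
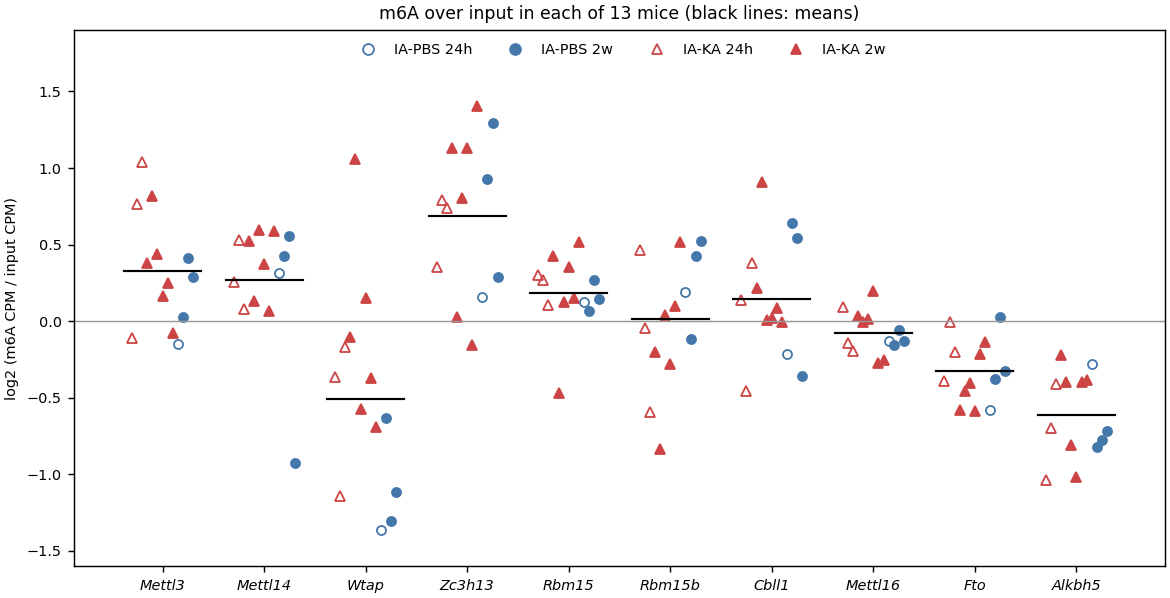
Log2 ratio of m6A CPM over input CPM for each gene in the 13 mice with both libraries (circles IA-PBS, triangles IA-KA; open symbols 24 hours, filled symbols 2 weeks; black lines are means). Every point of Alkbh5 lies below 0 and all but 1 of Zc3h13 lie above 0.

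The remaining members did not pass in edgeR. Mettl3 came to 0.27 (SE 0.10, adjusted p = 0.0530) and was above 0 in 10 of 13 mice, and Mettl14 to 0.24 (SE 0.11, adjusted p = 0.0887) with 12 of 13 above 0. Rbm15 stood at 0.14 (SE 0.08), Cbll1 at 0.11 (SE 0.12), Rbm15b at -0.02 (SE 0.11) and Mettl16 at -0.11 (SE 0.07). Mettl14 rested on IA-PBS mouse 4, whose ratio was -0.93, and without that mouse it came to 0.33 and passed (adjusted p = 0.00231). Mettl3 passed when IA-PBS mouse 1, IA-KA mouse 8 or IA-KA mouse 42 was left out (adjusted p from 0.0369 to 0.0465), and Rbm15 passed without IA-KA mouse 6 (adjusted p = 0.0284). DESeq2 also called Mettl3 (adjusted p = 0.0432), and voom called Mettl14 (3.42e-04) and Rbm15 (0.0257). Over all genes in this comparison, DESeq2 called 32.8% and voom 47.0%. Where libraries were scaled by their totals alone, the median of all genes moved from -0.03 to 0.18 and the calls over all genes went from 2286 higher and 2142 lower to 4906 higher and 476 lower. Under that scaling Zc3h13 (0.87) and Alkbh5 (-0.44) kept their calls, Fto (-0.15, adjusted p = 0.181) and Wtap (-0.34, adjusted p = 0.104) lost them, and Mettl3, Mettl14, Rbm15 and Cbll1 gained calls as higher in m6A. Rbm15b and Mettl16, which were not called, changed sign under it, to 0.20 and 0.10.

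The rest of the pathway was read from lists of other writers (6 genes), methyl donor enzymes (5) and readers (13). None of them passed in any of the 4 IA-KA comparisons in edgeR. Between m6A and input, 1 other writer was higher, the scaffold subunit Virma (0.27, SE 0.09, adjusted p = 0.0341). The donor list is not described for this comparison other than Mat2a, which stood at -0.14 (SE 0.07, adjusted p = 0.165). Of the readers, which bind the mark, 4 were higher and 3 lower among 12 tested. Among all genes, 15.6% were higher and 14.6% lower. The nuclear reader Ythdc1 was higher by 0.85 (SE 0.12, adjusted p = 1.02e-04), the neuronal RNA-binding protein gene Fmr1 by 0.49 (SE 0.10, adjusted p = 0.00174), and Igf2bp3 was lower at -1.49 (SE 0.24, adjusted p = 4.65e-04).

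The levels of several members differed between the library sets of the m6A assay. In the 6 m6A libraries of set 4 (4 IA-PBS and 2 IA-KA mice), Zc3h13 ran from 551 to 703 CPM, Rbm15 from 63.7 to 81.3, Rbm15b from 56.8 to 90.2 and Mettl3 from 9.92 to 19.3. In the 13 m6A libraries of sets 3 and 5, Zc3h13 ran from 92.1 to 662, Rbm15 from 24.7 to 58.0, Rbm15b from 20.0 to 44.5 and Mettl3 from 17.3 to 95.2 CPM. The ranges did not overlap for Rbm15 and Rbm15b, and overlapped for Zc3h13 only through IA-KA mouse 42. This difference was seen in the levels first and then tested in the IA-PBS mice alone, with 4 mice in set 4 and 4 in set 5 and time as a term. The libraries tested are among those in which it was seen, so the p-values are not an independent check. In edgeR, 4 of 10 members passed an adjusted p of 0.05, beside 37.1% of all genes (18.6% higher and 18.5% lower in set 4), and 5 had an unadjusted p under 0.05 (46.4% of all genes). Those shares do not set the members apart from other genes. Zc3h13 (1.16, SE 0.18, adjusted p = 0.00146), Rbm15b (1.06, SE 0.19, adjusted p = 0.00291) and Rbm15 (0.83, SE 0.13, adjusted p = 0.00149) were higher in set 4, and Mettl3 was lower (-0.73, SE 0.23, adjusted p = 0.0370). In the same 8 libraries the markers of excitatory neurons (5 genes, none at 0) summed to between 4610.5 and 4904 CPM in set 4 and between 1562 and 2029 CPM in set 5. Sums were also higher in set 4, without overlap, for hippocampal neurons (954 to 1385 against 485 to 723 CPM), astrocytes (1162 to 1326 against 616 to 998) and microglia (147 to 169 against 80.7 to 124). Those of thalamus were lower (93.8 to 109.48 against 109.49 to 241 CPM), and the other lists overlapped. Mitochondrial genes took 2.31 to 5.98% of counts in set 4 and 6.88 to 10.1% in set 5. The part of markers and mitochondrial counts in the set difference was not tested. Cbll1 stood at 0.44 (SE 0.16), with an adjusted p of 0.0530 in edgeR, 0.0232 in DESeq2 and 0.0204 in voom. Over all genes, DESeq2 called 42.8% and voom 55.0% in this comparison of sets. Mettl3 lost its call when any of 6 of the 8 libraries was left out, with adjusted p-values from 0.0511 (without IA-PBS mouse 73 at 24 hours) to 0.158 (without IA-PBS mouse 1 at 24 hours).

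**Figure D5:**
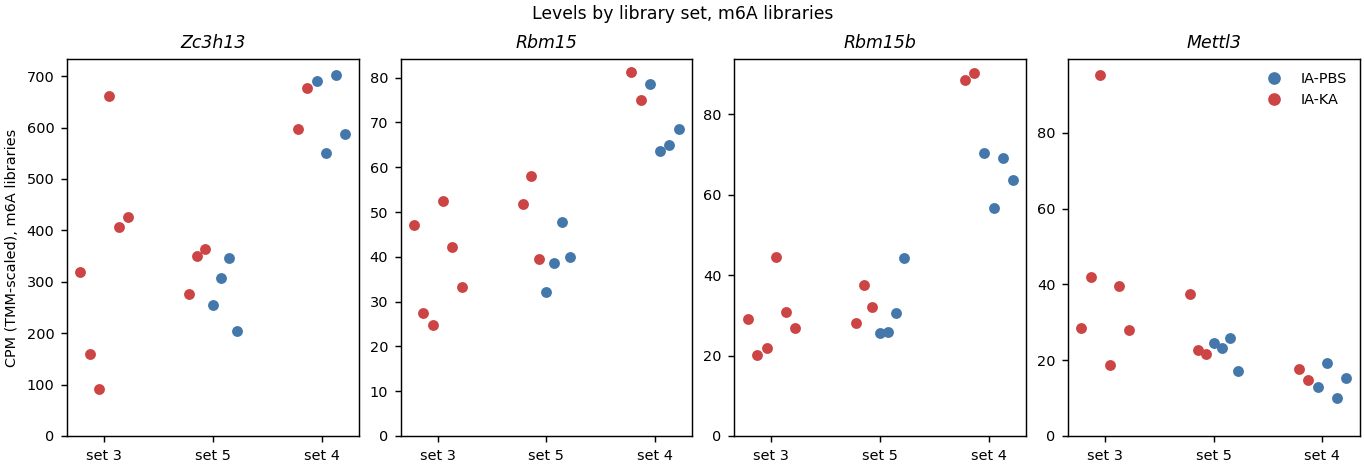
CPM (TMM-scaled, linear axis from 0) of Zc3h13, Rbm15, Rbm15b and Mettl3 in the 19 m6A libraries by library set; points are single mice, blue IA-PBS and red IA-KA. Both colours lie together in set 4, from 551 to 703 CPM for Zc3h13, while set 3 holds IA-KA mice only.

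At 24 hours, set 4 holds 2 mice of each treatment, set 3 holds IA-KA mice only and set 5 holds 1 IA-PBS mouse. Within set 4, 0 of 10 members passed in edgeR (2.11% of all genes did), and their log2 fold changes ran from -0.21 (Fto, SE 0.17) to 0.51 (Rbm15b, SE 0.15, adjusted p = 0.137). Those of Mettl16 (0.34, SE 0.16), Rbm15 (0.29, SE 0.14), Wtap (0.28, SE 0.14), Alkbh5 (0.20, SE 0.14), Mettl3 (0.14), Cbll1 (0.08), Zc3h13 (0.03) and Mettl14 (-0.05) lay between them. At 2 weeks only set 5 holds both treatments, with 3 mice each. Within it the values ran from -0.04 (Rbm15b, SE 0.25) through -0.03 (Mettl16), 0.05 (Fto), 0.11 (Cbll1), 0.17 (Wtap), 0.18 (Mettl14), 0.20 (Zc3h13), 0.25 (Rbm15) and 0.31 (Mettl3, SE 0.30) to 0.31 (Alkbh5, SE 0.21). The lowest adjusted p among them was 0.956. Input set 1 at 24 hours holds only IA-PBS mouse 1 and IA-KA mice 67 and 98. The log2 fold changes there ran from -0.77 to 0.68 (Alkbh5), and with a single control only their size is given. Within input set 1 at 2 weeks, 0 members passed in edgeR (0% of all genes). The values there ran from -0.70 (Wtap) to 0.77 (Zc3h13, SE 0.28, adjusted p = 0.238).

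Across the 12 m6A libraries of sets 3 and 5 other than that of mouse 8, log2 levels of Wtap and Cbll1 went together most closely (Pearson r = 0.75). Rbm15 and Rbm15b came next (r = 0.66), and those of Mettl3 and Rbm15b went apart most (r = -0.73). In the 6 libraries of set 4 the same pairs, in that order, stood at 0.28, 0.77 and -0.06. IA-KA mouse 6, with 17.5% mitochondrial counts in its m6A library, is among the 12. It held their highest Wtap (138.5 CPM, next 89.9) and Cbll1 (21.4 CPM, next 17.4). It also held their highest Mettl3 (42.0 CPM) and lowest Rbm15b (20.0 CPM), and its weight on these r values was not tested. These points share scaling and sets, and the values are a description. The genes whose m6A levels followed Mettl3 most closely over all 19 m6A libraries, among 9582 genes with a mean of at least 10 CPM, were Ncbp3 (r = 0.95), Gm29666 (r = 0.94) and Ndufab1 (r = 0.93). In the 12 libraries just named the 3 values were 0.85, 0.86 and 0.66. For Fto they were Hectd3 (0.97), Wars (0.96) and Got2 (0.96), and 0.96, 0.97 and 0.97 in the 12 libraries.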

How the data were processed

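Raw read counts per gene symbol and sequencing lane were deposited by the authors for input and m6A libraries made with the SMARTer Stranded Total RNA-Seq Kit v2 (genome build mm10 per the labels). The aligner, the counting tool and whether strand was used: not given in the sources used here. The labels describe input as total RNA and the m6A pull-down with a reference to polyA RNA. The 4 lanes of each library were summed. Assays of 27 libraries were inferred from column prefixes, and 8 columns that match no listed sample were not used. Input libraries below 100000 counts (3 of 16) were left out.

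Genes were filtered with filterByExpr, scaled by TMM and tested with edgeR 4.0.16 (robust quasi-likelihood, R 4.3.3), with Benjamini-Hochberg adjustment over all genes at 0.05. The input comparison at 24 hours was fitted with the libraries of both times, since IA-PBS at 24 hours has 1 library. m6A was compared with input with the mouse as a block, as labels give both libraries of each of 13 mice. Deviations from group means correlated within mice with a median r of 0.40 (-0.02 to 0.83, 12 mice, 10 over 0.1). Alternatives included DESeq2 1.42.0, limma 3.58.1 voom with quality weights, other scaling and filters, library sets and leaving out each library. Mice are the replicates. Scripts were tested on simulated data. Gene positions are from RefSeq GRCm38.p6 and transcript sequences from GENCODE vM39 (GRCm39). All 10 genes are named, with Mat2a, up to 3 called genes of each other pathway list by smallest p, and the 3 genes most correlated with Mettl3 and with Fto in m6A. One result of the donor list is not reported here. Members and lists were chosen with earlier results of these data known.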

Additional observations from a re-analysis of the deposited data

Results flagged for a closer look

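In 4 of the 50 groups of 4 to 10 values that were checked, 1 mouse stood apart from the rest by Dixon's criterion, which chance alone meets in about 1 in 20 groups. Mettl14 stood at 17.0 CPM in the m6A library of IA-PBS mouse 4 at 2 weeks, against 41.6 to 46.3 CPM in the other 4 mice. Mettl14 stood at 42.6 CPM in the m6A library of IA-KA mouse 67 at 24 hours, against 35.4 to 37.3 CPM in the other 4. Alkbh5 stood at 19.8 CPM in the m6A library of IA-KA mouse 8 at 24 hours, against 48.1 to 51.8 CPM in the other 4, and this library had 16.4% mitochondrial counts. The log2 ratio of m6A over input for Cbll1 was 0.91 in IA-KA mouse 6 at 2 weeks, against -0.01 to 0.22 in the other 5, and the m6A library of that mouse had 17.5% mitochondrial counts. Whether the mitochondrial share bears on these values was not tested.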

How the results depend on the processing

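Over 159 alternative fits, the 10 genes gave 1590 values, of which 1421 kept their direction and their side of the threshold, 17 lost a call, 19 gained one, 133 uncalled values changed sign and 0 called values reversed. In input at 2 weeks, the count of called members was 1 with DESeq2 and 1 with voom (Wtap both times), against 0 in edgeR, beside 0.822% and 2.49% of all genes with DESeq2 and voom. Between m6A and input the count was 4 with the mouse as a replicate block, beside 4428 of 14640 genes. With no replicate block the count was 4, with the same 4 genes, beside 2248 of 14640 genes. The count fell to 1 in IA-PBS mice alone, 0 in IA-KA mice at 24 hours alone and 2 in IA-KA mice at 2 weeks alone (Fto and Alkbh5). Fewer mice enter there, and 166 of 15109, 20 of 14029 and 1339 of 15413 genes passed. When each mouse was left out, the count ran from 4 to 5, beside 3385 of 14645 to 4891 of 14894 genes. The replicate block changed no call among the 10 genes. For library set 4 against set 5 the count ran from 3 to 5 when each library was left out, beside 3645 of 16097 to 8446 of 16103 genes. For Wtap in input at 2 weeks, 18 alternatives gave changes from -0.90 to -0.55 and adjusted p-values from 0.0319 to 0.769, the highest without IA-PBS mouse 3. Input at 24 hours without IA-PBS mouse 1 was not run, as no control would be left. Depth limits Cbll1 most, with 27 counts in its lowest library.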
